A study of Homo sapiens with 6 samples.

Results

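The inflammatory arm of the senescence secretome was examined through 10 cytokine genes, which were picked by gene name from the 67130 genes of the expression table, alternative contigs left out, and all 10 were found. They were the interleukins IL6, IL11, IL1A and IL1B, the related cytokine LIF, and the chemokines CXCL8, CXCL1, CXCL2, CXCL3 and CCL2. RNA-seq was carried out on 6 samples of hTERT-RPE1-TOShOFD1 cells, an hTERT-immortalized human retinal pigment epithelial line that carries a lentiviral, Tet-On inducible short hairpin RNA (shRNA) targeting OFD1, a protein of centrioles and centriolar satellites. The 3 control samples received no doxycycline, and the 3 OFD1-depleted samples received 200 ng/mL of it, and both titles give 72 h. The labels give the control genotype as WT, but by the cell name these cells carry the same uninduced shRNA construct. No sample received doxycycline without the shRNA (0 of 6), so the antibiotic and the loss of OFD1 cannot be told apart. The methods do not call the line a single clone. The study used these libraries to examine cell cycle arrest after OFD1 depletion. It considered senescence and excluded it, because cells regained OFD1 and proliferated again once doxycycline was washed out. The study describes the arrest as reversible quiescence. The secretome genes were examined here because senescence was one kind of arrest it considered.

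Senescent cells release a mixture of cytokines, chemokines, proteases and growth factor regulators. Its inflammatory arm is switched on mainly by NF-kB and C/EBP beta, with IL1A on the cell surface acting upstream of IL6 and CXCL8. Most of these cytokine mRNAs are short-lived, because AU-rich elements in their 3′ UTRs recruit decay proteins. Retinal pigment epithelial cells are known to secrete IL6, CXCL8 and CCL2 when stimulated by IL1 or TNF.

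Letters that NF-kB is known to bind occur in the promoters of several of these genes. In RefSeq promoters on GRCh38.p14, from 250 bases before to 50 bases after the transcription start, 8 of the 10 genes had an entry, and CCL2 and LIF had none. The NF-kB letters GGANTTTCC, searched on both strands, were found in 5 of these 8 genes (IL6, CXCL8, CXCL1, CXCL2 and CXCL3), against 1.64% of all 35116 promoters. Why this form of the letters was taken is not given, and it covers each form found in these genes. The matches of CXCL1, CXCL2 and CXCL3 are not independent, because those promoters are much alike. The count is therefore a description and carries no weight as support. The 5 stretches of 100 bases that hold the match run from 130 to 31 bases before the start. They are printed because the 5 genes share these letters. Among these genes, IL6 was called, CXCL8 was tested and not called, and CXCL1, CXCL2 and CXCL3 were too low to be tested. Each stretch is written 5′ to 3′ on the strand of its gene, with the matched letters in capitals. On GRCh38.p14, IL6 lies at chr7:22727070-22727169 (plus strand), CXCL8 at chr4:73740439-73740538 (plus), CXCL1 at chr4:73869263-73869362 (plus), CXCL2 at chr4:74099226-74099325 (minus) and CXCL3 at chr4:74038720-74038819 (minus). The start is that of the RefSeq entry and can differ from the gene coordinates given below. The IL6 stretch lies inside the coordinates given below for IL6, and the CXCL3 stretch overlaps those of CXCL3.
IL6: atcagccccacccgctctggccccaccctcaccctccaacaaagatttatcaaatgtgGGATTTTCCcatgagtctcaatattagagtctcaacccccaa
CXCL8: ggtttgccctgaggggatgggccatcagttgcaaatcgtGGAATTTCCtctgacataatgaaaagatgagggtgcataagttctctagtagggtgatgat
CXCL1: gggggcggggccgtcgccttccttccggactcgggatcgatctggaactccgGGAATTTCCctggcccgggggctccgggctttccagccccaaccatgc
CXCL2: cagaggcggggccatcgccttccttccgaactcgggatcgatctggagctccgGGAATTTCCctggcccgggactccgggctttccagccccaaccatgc
CXCL3: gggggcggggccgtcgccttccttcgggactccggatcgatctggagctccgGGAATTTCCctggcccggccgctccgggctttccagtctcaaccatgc

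The match began 72 bases before the start in IL6, 91 bases before it in CXCL8, 78 in CXCL1 and CXCL3, and 77 in CXCL2. The printed stretches of CXCL1, CXCL2 and CXCL3 were between 88.1% and 93.0% identical, and all 3 hold the same GGAATTTCC letters as CXCL8, whereas IL6 has GGATTTTCC. The C/EBP letters TTNNGCAAT (2.31% of all promoters) were found in IL6, 156 bases before the start on the opposite strand. The AP-1 letters TGANTCA (7.71% of all promoters) were found in 3 genes, IL11, IL1A and CXCL8. A match is a description of letters, not of binding.

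Values are FPKM, the fragments of a gene divided by transcript length and by the mapped fragments of the sample, so levels can be set side by side between genes. The summed FPKM was 408302 to 414547 in control and 433262 to 493510 in OFD1-depleted samples. No read counts were given with FPKM. A rough estimate from the steps between low values put the depth at 37600000 to 44100000 fragments, but only 15.3% to 19.2% of those low values lay on whole steps (within 0.02 of a whole number). The share of FPKM from mitochondrially encoded genes was 8.66% to 13.8% in control and 15.6% to 19.3% in OFD1-depleted samples. Comparisons were made with limma on log2(FPKM + 0.1), a scale that understates the change of low genes, in the 12025 genes that averaged 1 FPKM or more over the 6 samples, with Benjamini-Hochberg adjustment over all of them and a threshold of 0.05. OFD1 itself had 3.34, 3.62 and 3.44 FPKM in control and 0.795, 0.763 and 1.43 FPKM after depletion (log2 fold change -1.75, SE 0.255, limma adjusted p = 0.00085). The target of the shRNA was thus lower in each of the 3 samples labelled as depleted than in any control.

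The labelled cell type was checked against marker genes. Of 6 epithelial markers, the keratins KRT8 (139.6 to 218 FPKM) and KRT18 (111 to 189 FPKM) were high, and the junction protein TJP1 was at 9.45 to 14.7 FPKM. KRT19 (at most 0.211 FPKM) and E-cadherin (CDH1, at most 0.0492 FPKM) were near 0, while N-cadherin (CDH2) was at 45.4 to 79.1 FPKM and was lower after depletion (log2 fold change -0.47, limma adjusted p = 0.0387), a call lost in 8 of 17 alternatives. The label of epithelial cells thus rests on part of its markers. The pigment epithelium genes MITF, OTX2 and RDH5 lay between 1.56 and 7.75 FPKM. The visual cycle genes RPE65 and RLBP1 and the pigment genes TYR and TYRP1 did not exceed 0.209 FPKM in any sample, and TTR was at 0, so the markers of mature pigment epithelium were largely absent. Of 8 macrophage and monocyte markers, TYROBP and AIF1 were at 0 in all 6 samples, PTPRC, CD14, LYZ and ITGAM did not exceed 0.148 FPKM, CSF1R was at 0.435 to 0.787 FPKM, and CD68, a lysosomal protein that many cells make, was at 31.4 to 40.7 FPKM. The summed level of that list was 36.6 to 41.3 FPKM in control and 32.3 to 40.9 FPKM after depletion. The 6 lymphocyte markers summed to at most 0.195 FPKM in any sample, with 3 of them at 0 throughout, and the 4 endothelial markers to at most 0.565 FPKM, with CDH5 at 0. Apart from CD68 and CSF1R, leukocyte markers were therefore near 0 in both groups. Of 6 fibroblast markers, 4 were tested, 2 rose and 0 fell (2 higher and 1 lower at an unadjusted p under 0.05), where 5.07% of all genes tested were called higher and 11.9% lower. COL1A1 (log2 fold change 1.48, limma adjusted p = 9.4e-05) and DCN (1.03, adjusted p = 0.015, and 0.054 without OFD1-depleted replicate 1) rose, PDGFRA (-0.14, adjusted p = 0.696) and PDGFRB (-0.43, adjusted p = 0.119) were not called, and the list summed to 26.9 to 35.9 FPKM in control and 37.8 to 49.8 FPKM after depletion, none of its 6 genes being at 0 throughout. The part of this change in the cytokine values was not tested. In bulk RNA, a change in the number of cells that make a transcript and a change in transcript per cell cannot be told apart.

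IL6 and CCL2 rose, IL1A and IL1B had higher values in every OFD1-depleted sample without a secure call, the 4 CXCL chemokines varied most among the OFD1-depleted samples themselves, and LIF and IL11 were not called, with overlapping groups. Of the 10 genes, 6 passed the filter on low values, and IL1A, CXCL1, CXCL2 and CXCL3 did not. Of the 6 tested, 2 were called higher and 0 lower, where 5.07% of all 12025 genes tested were called higher and 11.9% lower. At an unadjusted limma p under 0.05, 3 of the 6 were higher, IL1B being the other one, and 0 were lower, where 11.5% of all genes tested were higher and 19.1% lower at that threshold. All 3 OFD1-depleted values lay above all 3 control values in 4 of the 10 genes. These were IL6, CCL2 and IL1B among those tested, where 13.8% of all genes tested did so, and IL1A among the genes with a mean from 0.1 to under 1 FPKM, where 8.12% of 5655 did so. IL1B passed the filter only through its OFD1-depleted samples, so its count carries no weight as support.

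**Figure D1:**
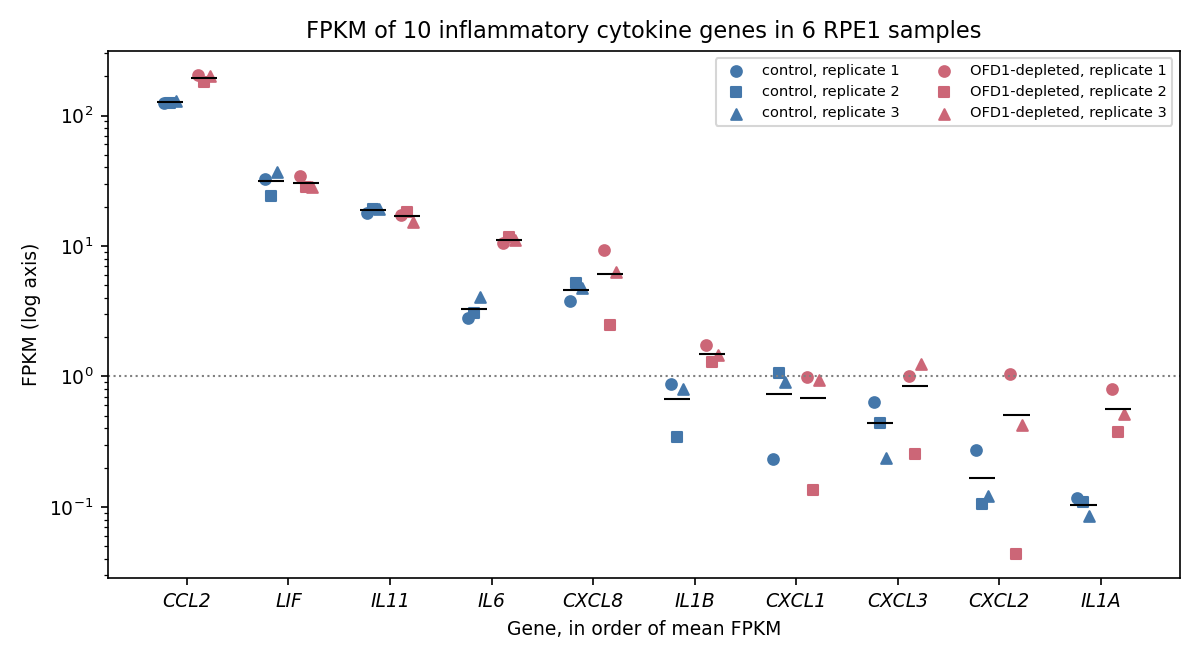
FPKM of the 10 cytokine genes in the 3 control and 3 OFD1-depleted samples on a log axis, each point 1 sample, each bar the group mean and the dotted line 1 FPKM. CCL2 lies at the top in both groups, and IL6, CCL2, IL1A and IL1B are the genes whose groups are separated.

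IL6, the main inflammatory interleukin of the secretome, which signals through IL6ST, showed the firmest rise of the set (ENSG00000136244, GRCh38 chromosome 7 from 22725884 to 22732002, plus strand, 5 exons in the canonical transcript). It had 2.81, 3.05 and 4.05 FPKM in control replicates 1, 2 and 3 and 10.5, 11.7 and 11.1 FPKM in OFD1-depleted replicates 1, 2 and 3. The 3 OFD1-depleted values lay close together, and all were above the highest control. The mean went from 3.31 ± 0.653 to 11.1 ± 0.594 FPKM (SD, n = 3 each), a ratio of 3.36. The log2 fold change was 1.73 (SE 0.163, 95% confidence interval 1.37 to 2.09, limma adjusted p = 5.2e-05). By exact permutation of the FPKM the two-sided p was 0.1, the smallest that 3 samples against 3 can give.

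The IL6 gene overlaps 2 genes on the opposite strand, STEAP1B and the antisense RNA IL6-AS1, and the strand setting used in counting is not given. STEAP1B, a metalloreductase family gene, had 6.78, 7.64 and 7.44 FPKM in control and 6.38, 5.53 and 6.26 FPKM after depletion (log2 fold change -0.26, limma adjusted p = 0.226). IL6-AS1 had 0.232, 0.435 and 0.252 FPKM in control and 0.482, 0.601 and 0.464 FPKM after depletion, so its groups did not overlap either. Both partners stayed below IL6 in the OFD1-depleted samples. In every control, STEAP1B lay above IL6 and IL6-AS1 below it. The share of reads passed between these genes was not tested.

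The other members of the IL6 family in the set, IL11 and LIF, were well above IL6 in level and gave no call. IL11, a cytokine of the same receptor family (ENSG00000095752, chromosome 19 from 55364382 to 55370463, minus strand), had 18.1, 19.2 and 19.3 FPKM in control and 17.4, 18.1 and 15.1 FPKM after depletion. Its groups met at about 18.1 FPKM, and the log2 fold change was -0.16 (95% confidence interval -0.44 to 0.12, limma adjusted p = 0.433). LIF, which holds stem cells undifferentiated and acts through LIFR and IL6ST (ENSG00000128342, chromosome 22 from 30240453 to 30246759, minus strand), had 32.8, 24.3 and 36.9 FPKM in control and 34.5, 28.5 and 28.5 FPKM after depletion. The controls spanned the whole range of the OFD1-depleted values. The log2 fold change was -0.023 (95% confidence interval -0.39 to 0.34, limma adjusted p = 0.944), and its sign turned in 6 of 17 alternatives. LIF overlaps LIF-AS1, at most 0.411 FPKM, and AC004264.1, at 2.37 to 3.83 FPKM, both on the opposite strand. For IL11 and LIF, these intervals leave out a rise of the size seen for IL6, though not a small change.

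IL1A and IL1B, the IL1 receptor ligands that lie close together on chromosome 2, were both low. IL1A, the alarmin held at the surface of senescent cells (ENSG00000115008, 112773925 to 112784493, minus strand), had 0.117, 0.108 and 0.0854 FPKM in control and 0.801, 0.378 and 0.512 FPKM after depletion. Every OFD1-depleted value was above every control, and the ratio of the means was 5.45 (0.103 ± 0.0162 against 0.564 ± 0.216 FPKM, SD, n = 3 each), the highest of the 10 genes. At the rough depth above, these values correspond to about 7 to 9 fragments in each control and 34 to 64 in each OFD1-depleted sample. Its mean of 0.334 FPKM is under the filter, so it has no main test. With the filter at a mean of 0.1 FPKM the difference was 1.66 on the log2 scale (95% confidence interval 0.78 to 2.54, limma adjusted p = 0.0236), and with no filter the adjusted p was 0.0619.

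IL1B, the inflammasome-processed form of IL1 (ENSG00000125538, 112829751 to 112836816, minus strand), had 0.870, 0.344 and 0.802 FPKM in control and 1.74, 1.30 and 1.45 FPKM after depletion. The groups did not overlap, but control replicate 2 lay well below the other two controls. The mean was 0.672 ± 0.286 FPKM in control and 1.49 ± 0.223 FPKM after depletion (SD, n = 3 each), a ratio of 2.22. The log2 fold change was 1.12 (SE 0.355, 95% confidence interval 0.34 to 1.90), and the limma adjusted p of 0.0526 missed the threshold. It was past the threshold in 6 of 16 alternatives, where the adjusted p ran from 0.0277 to 0.192.

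CCL2, the monocyte-attracting chemokine, was the most abundant of the set in all 6 samples (ENSG00000108691, chromosome 17 from 34255218 to 34257203, plus strand, 3 exons). It had 124, 125 and 129 FPKM in control and 206, 181 and 200.1 FPKM after depletion. The lowest OFD1-depleted sample, replicate 2, was still far above the highest control. The mean went from 126 ± 2.77 to 196 ± 12.8 FPKM (SD, n = 3 each), a ratio of 1.55 (log2 fold change 0.63, SE 0.122, 95% confidence interval 0.37 to 0.90, limma adjusted p = 0.00473). Scaling of every sample to the same total (TPM), which shifted the median log2 fold change over the tested genes by -0.15, gave 0.49 for CCL2 (adjusted p = 0.0202) and 1.60 for IL6 (adjusted p = 0.000125).

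**Figure D2:**
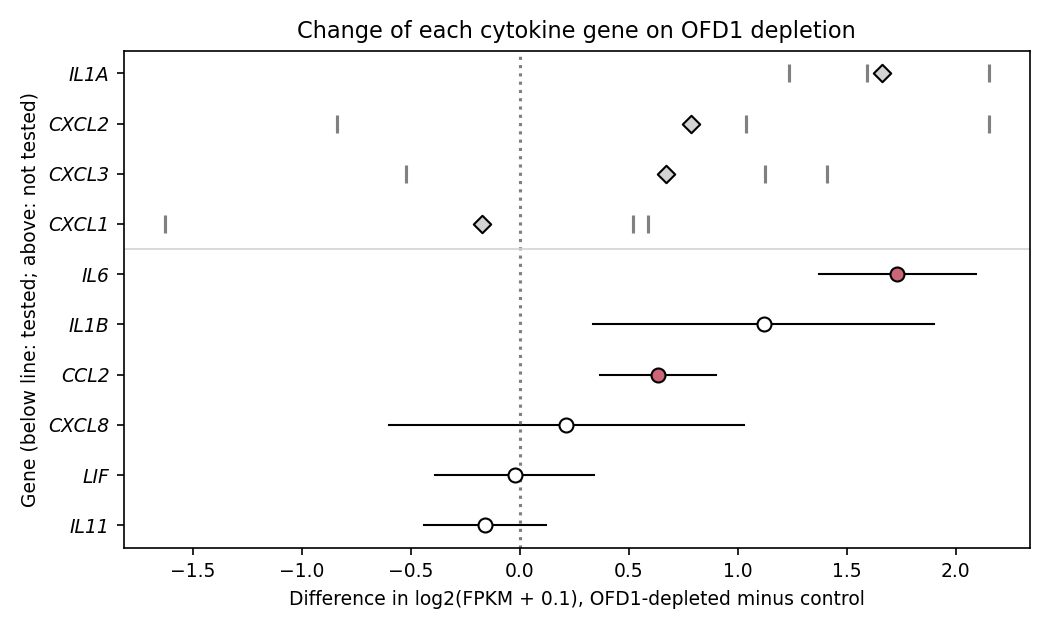
Difference in log2(FPKM + 0.1), OFD1-depleted minus control, for each of the 10 genes. Below the grey line, circles with 95% confidence intervals from limma show the 6 tested genes, filled where called (IL6 and CCL2), and above it, diamonds show the mean difference of the 4 genes under the filter, with a tick for each OFD1-depleted sample minus the control mean. The intervals of IL6 (1.37 to 2.09) and CCL2 (0.37 to 0.90) lie above 0, while that of CXCL8 runs from -0.60 to 1.03.

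The CXCL chemokines attract neutrophils through CXCR2 and, for CXCL8, also CXCR1, and their genes lie in a cluster on chromosome 4. CXCL8, also known as IL8 (ENSG00000169429, 73740541 to 73743716, plus strand), had 3.79, 5.25 and 4.74 FPKM in control and 9.35, 2.47 and 6.37 FPKM after depletion. OFD1-depleted replicates 1 and 3 were above all controls, and replicate 2 was below all of them. The log2 fold change was 0.21 (95% confidence interval -0.60 to 1.03, limma adjusted p = 0.742). This value rests on replicate 2. Without it the log2 fold change was 0.75 (adjusted p = 0.0256), and without replicate 1 it was -0.19 (adjusted p = 0.753).

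The same sample was the lowest of its group in the other 3 CXCL genes, all under the filter. CXCL1 (ENSG00000163739, 73869393 to 73871308, plus strand) had 0.231, 1.06 and 0.904 FPKM in control and 0.993, 0.135 and 0.942 FPKM after depletion. CXCL2 (ENSG00000081041, 74097040 to 74099196, minus strand) had 0.274, 0.105 and 0.122 FPKM in control and 1.04, 0.0437 and 0.428 FPKM after depletion. CXCL3 (ENSG00000163734, 74036589 to 74038807, minus strand) had 0.634, 0.442 and 0.237 FPKM in control and 1.02, 0.256 and 1.26 FPKM after depletion. In CXCL1 and CXCL2, OFD1-depleted replicate 2 was also the lowest of all 6 samples, while in CXCL3 it lay within the range of the controls. With the filter at a mean of 0.1 FPKM, the log2 fold changes were -0.17 for CXCL1, 0.78 for CXCL2 and 0.67 for CXCL3 (limma adjusted p = 0.901, 0.528 and 0.468).

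These are small numbers of fragments, about 2 for CXCL2 and 7 for CXCL1 in OFD1-depleted replicate 2 at the rough depth above. The canonical transcripts of CXCL1 and CXCL2 were 83.4% identical with a longest shared run of 77 bases, and those of CXCL2 and CXCL3 71.7% identical with a shared run of 97 bases. How fragments that fit more than 1 of them were divided is not given, so the split between these 3 genes is uncertain. CXCL8, at about 179 to 610 fragments, was also lowest in that replicate and does not share that limit.

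**Figure D3:**
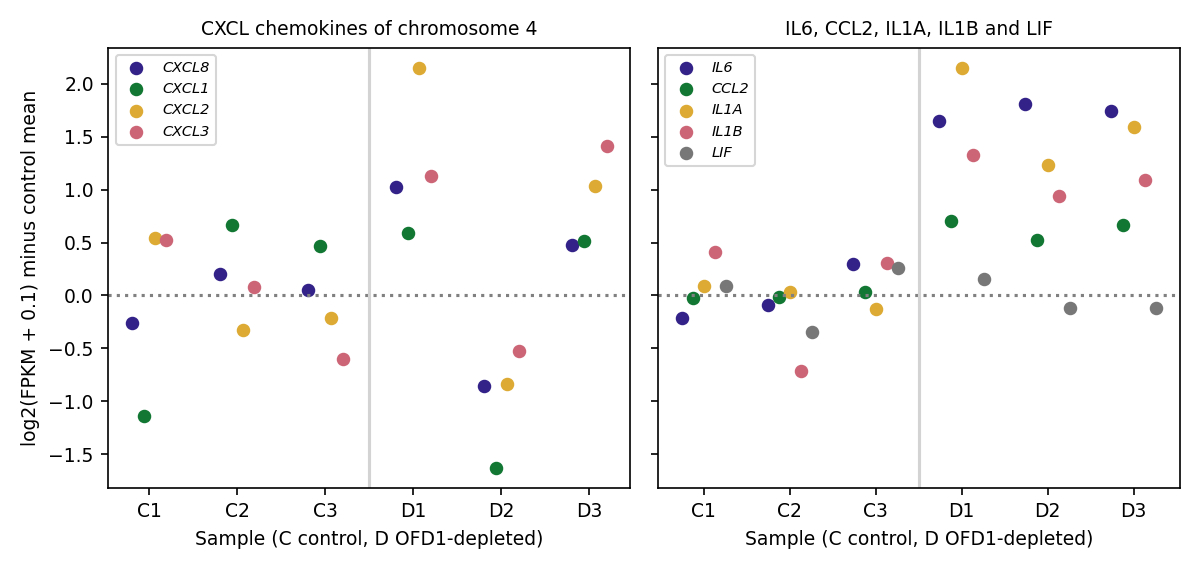
Difference of each sample from the control mean on log2(FPKM + 0.1), for the CXCL genes (left) and for IL6, CCL2, IL1A, IL1B and LIF (right), each point 1 sample (C control, D OFD1-depleted, replicates 1 to 3). The 4 CXCL genes fall below 0 in D2 (-0.52 to -1.63) and above 0 in D1 and D3, while IL6 stays at 1.65 to 1.81 and CCL2 at 0.52 to 0.71 in all 3.

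OFD1-depleted replicate 2 therefore separated the CXCL genes from the others. Relative to the control mean, CXCL8 was at 1.02, -0.86 and 0.48 on the log2 scale in OFD1-depleted replicates 1, 2 and 3, CXCL1 at 0.59, -1.63 and 0.52, CXCL2 at 2.15, -0.84 and 1.04, and CXCL3 at 1.12, -0.52 and 1.41. IL6 was at 1.65, 1.81 and 1.74 and CCL2 at 0.71, 0.52 and 0.67 in the same samples. Of the 10 genes, 8 were lowest in that replicate among the OFD1-depleted samples, and IL6 and IL11 were highest in it. The replicate also had the highest summed FPKM (493510) of the 6 samples, and its OFD1 level of 0.763 FPKM was close to the 0.795 FPKM of replicate 1. The part of the library in the CXCL values was not tested. Without that replicate the groups did not overlap in 8 of the 10 genes instead of 4, while over all 17680 genes that averaged 0.1 FPKM or more that share went from 30.6% to 45.4%, in either direction.

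The order of levels was led by the same 3 genes in both groups, CCL2, LIF and IL11, whose values did not overlap with their neighbours in that order. In control, CXCL8 (4.59 FPKM) and IL6 (3.31 FPKM) followed with overlapping values. In OFD1-depleted samples, IL6 (11.1 FPKM) came before CXCL8 (6.07 FPKM) with no overlap. The 5 genes below them, CXCL1, IL1B, CXCL3, CXCL2 and IL1A, all had means under 1 FPKM in control, and neighbours in that order overlapped. In OFD1-depleted samples IL1B (1.49 FPKM) led these 5 with all its values above those of CXCL3, and the other four overlapped.

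Summed over the 10 genes, the level was 184, 179 and 196 FPKM in control and 283, 244 and 266 FPKM after depletion, a ratio of 1.42. Most of this was CCL2, which made up 67.7% of the sum in control and 74.1% in OFD1-depleted samples. Without CCL2, the sums were 59.6, 53.9 and 67.1 FPKM in control and 77.3, 62.9 and 65.8 FPKM after depletion, which overlapped.

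Copies of ATTTA, the core of the AU-rich element, were counted in the 3′ UTRs of the canonical transcripts of GENCODE version 44. IL6 had 6 copies (14.1 per kb), CXCL2 had 10 (14.0 per kb), CXCL3 had 7 (10.4 per kb) and IL1B had 6 (9.84 per kb). Only 0.376% of the 10628 tested genes whose 3′ UTR was 30 bases or longer had a density as high as that of IL6. CXCL1, with 7.77 copies per kb, and CXCL8, with 7.19 per kb, were also dense, against a median of 1.78 per kb over the tested genes. CCL2 had 1 copy (2.66 per kb) and LIF had 7 in a long 3′ UTR (2.19 per kb). IL6 thus had the highest density of the 10 genes, while CCL2, the other gene that rose, was the second lowest after LIF and still above the median. By number of copies alone the genes stood out less, since 29.1% of tested genes had at least the 6 copies of IL6 and 74.0% at least 1.

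Genes that regulate the decay or stability of cytokine mRNAs were examined as a group of 11, all tested, of which 1 rose and 0 fell by limma. At an unadjusted p under 0.05, 2 were higher and 2 lower. Over all genes tested, 5.07% were called higher and 11.9% lower, and 11.5% and 19.1% at the unadjusted threshold. The median log2 fold change of the group was -0.11, against -0.03 over all genes tested, and the other 10 genes were not called. The gene that rose was ZC3H12A (Regnase-1), an RNase that degrades IL6 mRNA. It had 2.71, 2.56 and 3.36 FPKM in control and 5.32, 4.86 and 5.02 FPKM after depletion (log2 fold change 0.80, limma adjusted p = 0.00705), with no overlap between groups.

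Of 23 NF-kB pathway genes, 22 were tested, and 0 rose and 1 fell by limma, with a median log2 fold change of -0.02. At an unadjusted p under 0.05, 1 was higher and 3 were lower. For comparison, 5.07% of all genes tested were called higher and 11.9% lower, and 11.5% and 19.1% at the unadjusted threshold. The subunits NFKB1, NFKB2, RELA and RELB and the inhibitor NFKBIA, itself an NF-kB target, were among the 21 without a call. NFKBIA had 19.2, 18.9 and 19.1 FPKM in control and 24.4, 22.2 and 23.8 FPKM after depletion. Its groups were separated, but it missed the threshold (log2 fold change 0.29, limma adjusted p = 0.117). IKBKB, also without a call, came nearer to the threshold in the other direction. Its OFD1-depleted values all lay below its controls (log2 fold change -0.44, limma adjusted p = 0.0559). NFKBIA and IKBKB fall outside the rule for named genes. TNFAIP3, like NFKBIA an NF-kB target, singled out after its values were seen, had 2.53, 0.916 and 1.77 FPKM in OFD1-depleted replicates 1, 2 and 3, so it too was lowest in replicate 2. TNIP1, which with TNFAIP3 restrains NF-kB signalling, fell from 37.9, 42.5 and 40.3 FPKM to 25.1, 27.3 and 22.5 FPKM (log2 fold change -0.69, limma adjusted p = 0.00365). Its groups did not overlap.

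Of 13 C/EBP, JAK and STAT genes, 12 were tested, and 2 rose and 0 fell by limma, with a median log2 fold change of -0.03. At an unadjusted p under 0.05, 2 were higher and 1 was lower. The shares over all genes tested were 5.07% called higher and 11.9% lower, and 11.5% and 19.1% at the unadjusted threshold. CEBPD, a C/EBP factor induced in acute inflammation, had 7.71, 7.66 and 9.08 FPKM in control and 11.9, 14.5 and 11.1 FPKM after depletion (log2 fold change 0.61, limma adjusted p = 0.0167). SOCS1, the feedback inhibitor of JAK kinases, had 1.60, 2.61 and 2.77 FPKM in control and 4.74, 5.14 and 4.15 FPKM after depletion (log2 fold change 1.01, adjusted p = 0.00928). In each gene the groups did not overlap. With no filter both calls were lost (adjusted p = 0.0682 for CEBPD and 0.0788 for SOCS1), and that of CEBPD was also lost without control replicate 1 or 2 (adjusted p up to 0.0783). CEBPB, the gene of C/EBP beta, was tested and not called, and its groups overlapped (log2 fold change 0.22, limma adjusted p = 0.305).

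Of 14 receptors and antagonists of these cytokines, 5 were tested and 0 were called by limma in either direction. Their median log2 fold change was 0.38, and 1 was higher and 0 lower at an unadjusted p under 0.05. Among all genes tested, 5.07% were called higher and 11.9% lower, and 11.5% and 19.1% at the unadjusted threshold. IL6ST, the signalling chain shared by IL6, IL11 and LIF, differed by 0.01 on the log2 scale (adjusted p = 0.979), and OSMR by -0.23 (adjusted p = 0.432). IL11RA went from 1.23, 1.07 and 1.30 FPKM to 2.27, 1.81 and 1.84 FPKM without passing the threshold (log2 fold change 0.67, adjusted p = 0.0695). The IL1 receptor chain IL1RAP (0.38, adjusted p = 0.176) and the antagonist IL1RN (0.38, adjusted p = 0.324) were not called. Of the genes too low to be tested, IL1R1 was lower in every OFD1-depleted sample than in any control, and IL6R was higher. With the filter at a mean of 0.1 FPKM, neither was called (log2 fold change -0.63 and 0.65, limma adjusted p = 0.289 and 0.320). The ligand-binding chain IL6R did not exceed 0.729 FPKM, and CXCR1, CXCR2, CCR2, ACKR1 and IL1R2 were at 0 in all 6 samples, so no transcript of the main receptors for CXCL8 and CCL2 was listed in these cells. LIFR, singled out after its values were seen, had 1.31, 1.33 and 1.27 FPKM in control and 0.618, 0.391 and 0.394 FPKM after depletion (log2 fold change -1.33, adjusted p = 0.0114 with the filter at a mean of 0.1 FPKM and 0.0587 with no filter).

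Of 31 other cytokines and chemokines, 7 were tested, 2 rose and 2 fell (the same counts at an unadjusted p under 0.05), against 5.07% higher and 11.9% lower over all genes tested, and 8 were at 0 in all samples, TNF, CCL5, CXCL10 and CSF3 among them. TSLP, an epithelial alarmin, rose from 5.34, 6.75 and 6.80 FPKM to 12.9, 13.9 and 13.5 FPKM (log2 fold change 1.09, limma adjusted p = 0.000401), and IL32 rose by 1.14 on the log2 scale (adjusted p = 0.0022). CSF1, the growth factor of macrophages, fell from 8.15, 6.13 and 9.36 FPKM to 2.49, 2.46 and 1.42 FPKM (log2 fold change -1.87, adjusted p = 0.000341). CLCF1, an IL6 family cytokine that falls outside the rule for named genes, passed less firmly (-0.54, adjusted p = 0.0387), and its call was lost in 10 of 17 alternatives, over which the adjusted p ran from 0.0018 to 0.183. The median log2 fold change of the 7 was 0.31.

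**Figure D4:**
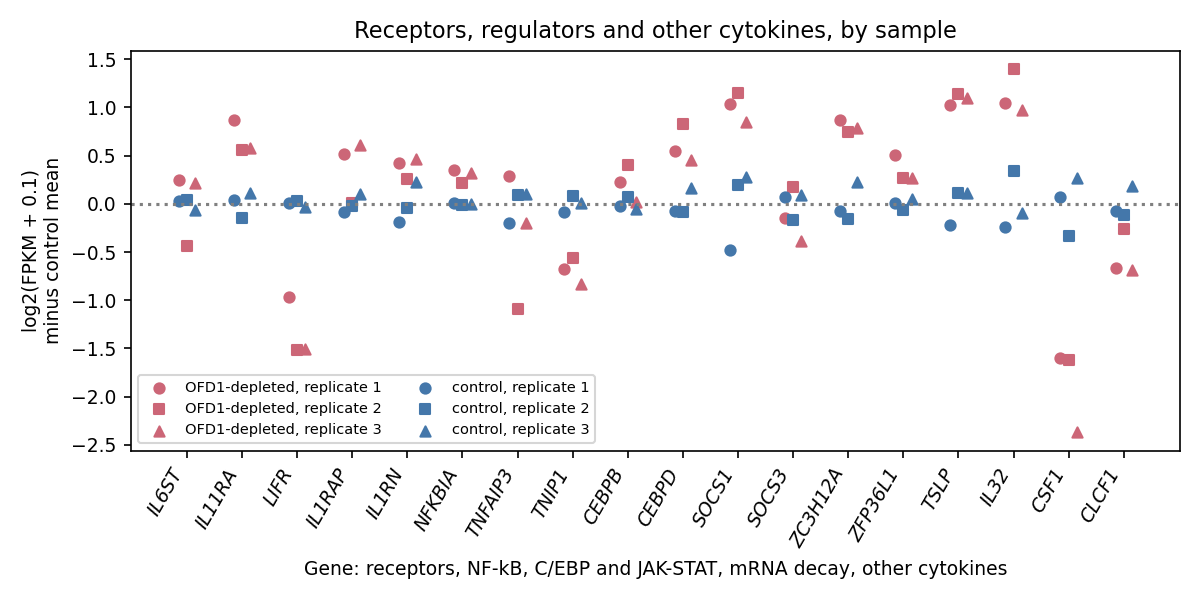
Difference of each sample from the control mean on log2(FPKM + 0.1) for 18 receptors, regulators and other cytokines, called or not, each point 1 sample. SOCS1, CEBPD, ZC3H12A, TSLP and IL32 lie above their controls in all 3 OFD1-depleted samples. So do IL11RA, IL1RN, NFKBIA and ZFP36L1, which were not called. TNIP1, LIFR, CSF1 and CLCF1 lie below, and TNFAIP3 is low in OFD1-depleted replicate 2.

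Of 36 other secretome genes (proteases, their inhibitors, growth factors and their binding proteins), 25 were tested, 3 rose and 7 fell (3 higher and 11 lower at an unadjusted p under 0.05), against 5.07% higher and 11.9% lower over all genes tested, with a median log2 fold change of -0.30. IGFBP5, an insulin-like growth factor binding protein (2.12, limma adjusted p = 1.4e-05), and SERPINB2, the plasminogen activator inhibitor PAI-2 (1.47, adjusted p = 3.3e-05), rose, and ANGPTL4, a lipase inhibitor, fell by 1.20 (adjusted p = 0.0078, and 0.0788 with no filter). Of 15 genes of DNA sensing and the inflammasome, 11 were tested with 0 calls by limma and a median of 0.04. At an unadjusted p under 0.05, 1 was higher and 1 lower. For this list and the next, the shares over all genes tested were 5.07% called higher and 11.9% lower. At the unadjusted threshold they were 11.5% and 19.1%. Of 24 interferon-stimulated genes, 13 were tested, 1 rose and 0 fell by limma (1 higher and 1 lower at an unadjusted p under 0.05), with a median of 0.01, and the gene that rose was DDX58, the RNA sensor RIG-I (0.54, adjusted p = 0.0324). That call was lost in 8 of 17 alternatives, over which the adjusted p ran from 0.00217 to 0.155, and 5 of the 8 left out a single sample, so each sample other than OFD1-depleted replicate 2 was needed for it.

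The tested genes most like CCL2 over the 6 samples, by Pearson correlation of log2(FPKM + 0.1), were AL596244.1 (0.998), TFAP2A (0.997), CD274 (0.997), TRO (0.996) and THUMPD2 (0.995). This ranking is a description over 6 samples in 2 groups, and 238 tested genes had a correlation above 0.95, so it singles out no close set. CD274, the immune checkpoint ligand PD-L1, had 7.47, 7.39 and 7.99 FPKM in control and 16.2, 14.3 and 16.97 FPKM after depletion.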

How the data were processed

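RNA-seq of 6 samples of RPE1 cells with an inducible shRNA against OFD1 was used, 3 control and 3 OFD1-depleted. The authors deposited 1 FPKM value for each gene and sample. By the methods and the submitters' processing notes, libraries were directional, and reads were mapped by HISAT2 (2.0.5) to GRCh38 (an Ensembl release) and summarized with StringTie. The strand setting and the StringTie version are not given in the sources used here. The labelled extraction text speaks of dissected retinas, whereas the other labels and the methods describe cultured cells. The study's legends call the samples biological replicates.

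Groups and replicate numbers came from the sample titles. Log2(FPKM + 0.1) was fitted with limma 3.58.1 (trend, R 4.3.3) in genes averaging 1 FPKM or more, two-sided, with Benjamini-Hochberg adjustment over all genes tested and a threshold of 0.05. Each of the 10 genes was compared by exact permutation of FPKM too. FPKM holds no counts, so no count test was used. Gene coordinates are those of the deposited table. Transcripts came from GENCODE version 44 and promoters from RefSeq (GRCh38.p14), read with Python 3.11.15 and pandas 2.3.3.

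The 10 genes and all lists were chosen with earlier results of these data known. Named genes were OFD1, the 10 genes, up to 3 called genes with the largest change in each list, tested receptors and antagonists, and the 5 genes most correlated with the most abundant member. Alternatives were other pseudocounts, filters, scalings and limma settings, a replicate block, and each sample left out in turn.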

Additional observations from a re-analysis of the deposited data

How the results depend on the processing

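IL6 and CCL2 stayed past the threshold in all 17 alternatives run, with limma adjusted p from 2.4e-06 to 0.00498 and from 0.000134 to 0.0379 and log2 fold changes of 1.50 to 1.88 and 0.49 to 0.69. IL1B was past the threshold in 6 of 16. Over all results, 453 of 547 alternative values were labelled the same as the main value, by a rule set for each kind. Tests kept their direction and side of the threshold, and values without a test stayed within the spread. Counts equalled the main count or stayed close to it, and many of these counts were 0 in both. LIF turned positive under median-of-ratios scaling (0.029) and quantile normalization (0.019), and ran from -0.20 to 0.10 with each sample left out, as CXCL8 did from -0.19 to 0.75. The main 610 higher and 1429 lower genes of 2039 became 260 and 823 of 1083 with no filter, 264 and 1974 with TPM scaling, 1093 and 1311 with quantile normalization, and 1693 and 2263 of 3956 with array weights. With each sample left out, 1111 to 2818 genes were called, 244 to 1077 higher and 867 to 1741 lower, the fewest without control replicate 3 (1111) or 1 (1155) and the most without OFD1-depleted replicate 2. Array weights called 4 of the 10 cytokine genes, CXCL8 (0.73, adjusted p = 0.0251) and IL1B added, and 36 instead of 19 genes of the pathway lists. Those lists gave 15 to 29 calls with a sample left out, the most without OFD1-depleted replicate 2, and the groups of 4 to 8 cytokine genes did not overlap, the most without the same replicate. The summed level ratio was 1.29 with TPM scaling. With the filter at a mean of 5 FPKM, OFD1 and IL1B had no value. The cause of these shifts was not tested. Deviations from the group means correlated at 0.0579, 0.0481 and 0.011 across genes between equal replicate numbers. Between unequal numbers the correlations ran from -0.0799 to 0.0503. Equal numbers were thus only weakly alike, and this check does not settle whether the samples were paired. The replicate block called 2296 genes (762 higher) and 3 of the 10 cytokine genes, IL1B added (adjusted p = 0.0277). Depth limits IL1A, CXCL1, CXCL2 and CXCL3, which rest on about 2 to 64 fragments a sample.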

Other observations

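BEST1, a chloride channel gene used here as a pigment epithelium marker, was at 4.33 FPKM in OFD1-depleted replicate 2 and at most 0.0475 FPKM in each of the other 5 samples. It was singled out after its values were seen. SERPINF1, another marker of that list, had 0.0908, 0.650 and 0.0900 FPKM in OFD1-depleted replicates 1, 2 and 3 and 0.640 to 1.11 FPKM in control. SERPINF1 was singled out in the same way, and in it OFD1-depleted replicate 2 lay within the control range. Genes picked like this do not show whether that replicate differs from replicates 1 and 3 more widely.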
